A study of Mus musculus with 15 samples.

Results

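Chemokines are small secreted proteins that direct the movement of leukocytes, and the genes described here are the chemokines and their receptors that a mouse array measured in mammospheres. Members were chosen by symbol in the platform's annotation: names starting with Ccl, Cxcl, Xcl, Cx3cl, Ccr, Cxcr, Xcr, Cx3cr or Ackr and a digit, with Pf4 and Ppbp added and Cxcl12, Cxcr4 and Ackr3 left out. This gave 53 of 18193 genes, of which 34 encode ligands and 19 receptors. Mammospheres are spheres that mammary cells form when they cannot attach, and here they were grown from primary tumours of the mammary gland in FVB/N animals of the genotype WAPCre-DNbcatn;HGF, which the DMSO controls carried too. Spheres grew for 7 days and were then exposed for 24 h to PHA, to ICG, to PHA+ICG or to the vehicle DMSO, and 250 ng of RNA was labelled per array. A first set held 3 PHA, 3 ICG and 3 DMSO arrays, and a second set held 3 PHA+ICG and 3 DMSO arrays. The study is described as one of inhibitors of the Wnt and MET pathways. As background rather than from the labels, compounds abbreviated ICG block transcription by β-catenin, and those abbreviated PHA block the kinase of MET. The labels give neither full names nor doses. The genotype name joins WAPCre, a Cre recombinase under the promoter of a milk protein gene, with DNbcatn and with HGF, the ligand of MET. By its letters DNbcatn reads as a form of β-catenin, the protein on which ICG compounds act, but it is not spelled out here. Nothing in the labels ties a replicate to a culture or animal of its own, so p-values reflect how far these arrays scatter, possibly for technical reasons alone.

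Chemokines bind receptors that span the membrane 7 times and signal through inhibitory G proteins, and receptor bearing cells move up the ligand's gradient. CC ligands mostly call monocytes, eosinophils and lymphocytes, and the CXC ligands with a Glu-Leu-Arg (ELR) motif call neutrophils through Cxcr2. Atypical receptors bind chemokines without G protein signalling and take them up or carry them. In mammary tumours these genes are known from tumour cells, fibroblasts and macrophages alike. In bulk RNA, fewer cells of a type and less RNA per cell cannot be told apart.

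The deposited values are log2 signals, so a difference of 1 is a 2-fold difference. Each gene is given by 1 probe set, the one with the highest mean over all arrays, and signals of different probe sets are not compared. Unless stated otherwise, a change is a log2 difference ± SE from limma, with n = 3 arrays per group, and a gene was called where its p, adjusted over all 18193 genes by Benjamini-Hochberg, was under 0.05. Array means lay between 6.25 and 6.35. The second set spread more than the first: the median SD within groups was 0.236, against 0.107, a ratio of 2.22, and each set was therefore fitted alone.

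In the second set both arrays numbered 1 had more leukocyte signal: the mean of 5 leukocyte markers was 9.70, 6.89 and 7.09 on PHA+ICG arrays 1, 2 and 3, and 10.59, 7.79 and 7.78 on the DMSO arrays. The mean of 11 macrophage markers behaved likewise, at 8.67, 7.04 and 7.01 with PHA+ICG and 9.88, 7.98 and 7.91 with DMSO. Neutrophil markers (3 genes) did not, with means of 6.92, 7.05 and 6.60 with PHA+ICG and 6.96, 7.91 and 7.92 with DMSO. Nor did 6 basophil and mast cell markers, at 7.18, 7.38 and 7.02 and at 7.80, 7.94 and 8.06. In the first set the leukocyte mean was even, from 11.32 to 11.42 with PHA, 11.28 to 11.35 with ICG and 11.62 to 11.68 with DMSO. DMSO array 1 of that set was lower in macrophage markers (10.44, against 10.94 and 10.95) and in 10 fibroblast markers (9.84, against 10.51 and 10.49). Epithelial markers, which check the label, averaged 8.94 to 9.31 in the first set and 8.03 to 9.54 in the second. Marker means of T and NK cells, B cells and endothelial cells lay between 4.12 and 5.69 on every array.

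With PHA, 11 of the 53 members fell and 1 rose. The genes that fell were ligands of the monocyte, macrophage and neutrophil kinds, Cxcl16 and the receptors Ccr1 and Ackr1, by 0.36 to 1.5 on the log2 scale, and the gene that rose was Ccl27a. The share lower was 20.8%, against 7.07% of all genes, and the share higher was 1.89%, against 3.14%. The median over all members was −0.06, beside 0.02 over all genes, and 18 members had an unadjusted p under 0.05. With ICG, 9 members fell and 2 rose. The share lower was 17%, near the 15% of all genes, and the share higher was 3.77%, below the 11.9% of all genes. The median was −0.07, beside 0.03, and 15 members had an unadjusted p under 0.05. PHA and ICG share their DMSO arrays, so their changes are not independent, and both are given side by side. With 1 spread pooled over all 15 arrays, Ccr1 and Cxcl3 were the 2 members called with PHA, and Ccl2, Ccl12 and Ccl25 the 3 called with ICG, all lower. These were 3.77% of members with PHA, against 0.901% of all genes lower in that fit, and 5.66% with ICG, near the 4.79% of all genes.

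**Figure D1:**
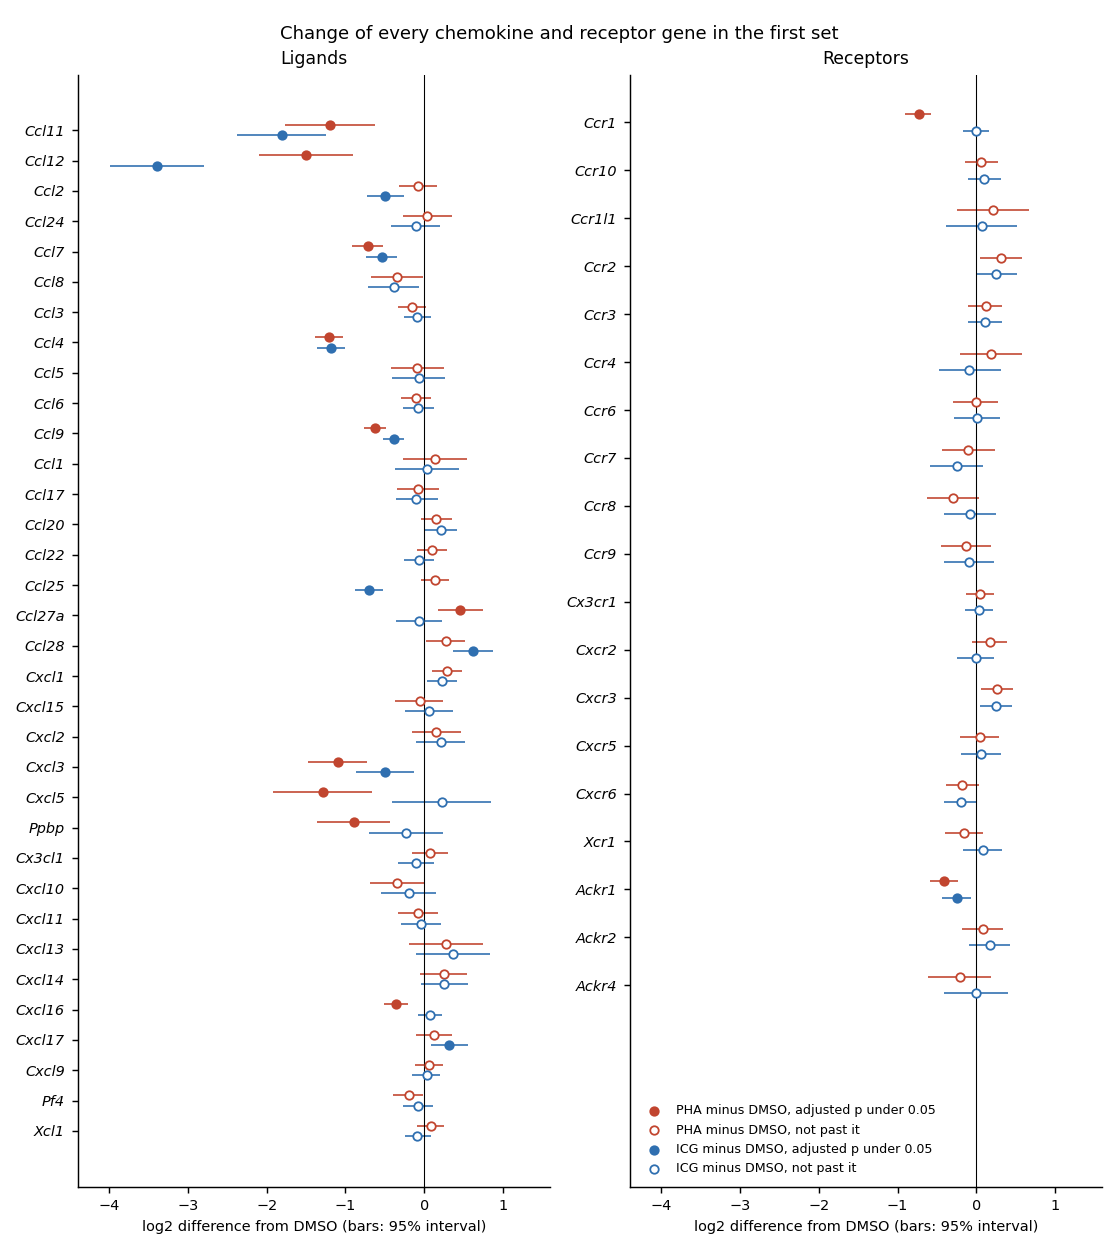
Log2 difference from DMSO of the 34 ligands (left panel) and 19 receptors (right panel) in the first set, with PHA in red above ICG in blue; bars are 95% intervals and filled points passed an adjusted p of 0.05. The points farthest to the left are Ccl12 and Ccl11, and among receptors Ccr1 with PHA.

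The monocyte and eosinophil CC ligands were Ccl2, Ccl7, Ccl8, Ccl11, Ccl12 and Ccl24, and 3 of these 6 fell with PHA and 4 with ICG. Over all genes 7.07% fell with PHA and 15% with ICG. Ccl12, a mouse ligand of the monocyte receptor Ccr2, had signals of 7.21, 7.07 and 6.84 with PHA, 5.42, 5.25 and 4.77 with ICG and 7.84, 8.78 and 9.00 with DMSO. No array of one group overlapped another, and the ICG arrays were the lowest. Ccl12 changed by −1.5 ± 0.27 with PHA (adjusted p = 0.00716) and by −3.39 ± 0.27 with ICG (adjusted p = 2.59e-05). The ICG signals lay below the lowest array median of 5.74. They were not shown to be above background, so no fold is given. Without DMSO array 1 the changes were −1.85 and −3.74. Ccl11, the eosinophil attractant eotaxin, had 5.46, 5.02 and 5.48 with PHA, 4.76, 4.54 and 4.84 with ICG and 5.90, 7.12 and 6.55 with DMSO. It was lower on every treated array, by −1.20 ± 0.25 with PHA (adjusted p = 0.0157) and −1.81 ± 0.25 with ICG (adjusted p = 0.000598). All these PHA and ICG signals lay below the lowest array median of 5.74 and were not shown to be above background. The sizes of the falls are therefore uncertain. The PHA call was lost without DMSO array 3 (adjusted p = 0.0513) or PHA array 2 (0.0657).

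Ccl7, another attractant of monocytes, had 11.77, 11.83 and 11.83 with PHA, 12.11, 12.07 and 11.78 with ICG and 12.44, 12.58 and 12.57 with DMSO. Both groups lay below DMSO, with changes of −0.72 ± 0.09 (PHA, adjusted p = 0.00114) and −0.54 ± 0.09 (ICG, adjusted p = 0.00167). Ccl2, the main ligand of Ccr2, had one of the highest signals among the members' probe sets, a ranking of probes and not of transcripts. Its signals were 13.87, 13.82 and 13.77 with PHA, 13.56, 13.51 and 13.13 with ICG and 13.82, 13.91 and 13.97 with DMSO. Ccl2 fell with ICG by 0.50 ± 0.11 (adjusted p = 0.00646), ICG array 3 being the lowest. With PHA its change was −0.08, with a 95% interval from −0.32 to 0.16. Ccl8 differed from DMSO by −0.35 ± 0.14 with PHA and −0.39 ± 0.14 with ICG, and neither passed (adjusted p = 0.167 and 0.0741).

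The macrophage inflammatory CC ligands, Ccl3, Ccl4, Ccl5, Ccl6 and Ccl9, are made by activated macrophages and other myeloid cells. Of these 5, 2 fell with each agent, beside 7.07% of all genes with PHA and 15% with ICG. Ccl4, which attracts monocytes and T cells, had 9.27, 9.44 and 9.45 with PHA, 9.53, 9.30 and 9.40 with ICG and 10.60, 10.65 and 10.52 with DMSO. Every treated array lay below every DMSO array. Its changes were −1.21 ± 0.08 with PHA (adjusted p = 4.07e-05) and −1.18 ± 0.08 with ICG (adjusted p = 1.36e-05). Ccl9, a rodent ligand of Ccr1, had 13.28, 13.29 and 13.23 with PHA, 13.57, 13.46 and 13.48 with ICG and 13.90, 13.85 and 13.93 with DMSO. PHA arrays were the lowest, at −0.62 ± 0.06 (adjusted p = 0.000225), and ICG arrays in between, at −0.39 ± 0.06 (adjusted p = 0.000857). A second probe set for Ccl9 changed by −0.64 and −0.42.

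Ccl3, next to Ccl4 in the genome and likewise a macrophage ligand, did not pass with either agent, at −0.16 ± 0.08 and −0.09 ± 0.08. The 95% intervals ran from −0.33 to 0.02 and from −0.26 to 0.09. Ccl6, a rodent ligand of Ccr1 with one of the highest signals, had 14.35, 14.32 and 14.09 with PHA, 14.33, 14.29 and 14.23 with ICG and 14.23, 14.43 and 14.42 with DMSO. These groups overlapped, although a second Ccl6 probe set was called with ICG (−0.50 ± 0.11, adjusted p = 0.0124), so the probe sets disagree. Ccl5, a ligand for T cells and monocytes, had differences of −0.09 ± 0.15 and −0.07 ± 0.15 and did not pass.

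Among the ELR CXC ligands, Cxcl1, Cxcl2, Cxcl3, Cxcl5, Cxcl15 and Ppbp, 3 of 6 fell with PHA and 1 with ICG. The shares were 50% and 16.7%, beside 7.07% and 15% of all genes. Cxcl3 had 10.19, 9.95 and 10.63 with PHA, 10.90, 10.70 and 10.98 with ICG and 11.61, 11.29 and 11.18 with DMSO. PHA arrays were below ICG arrays and these below DMSO. It changed by −1.10 ± 0.17 with PHA (adjusted p = 0.00281) and −0.50 ± 0.17 with ICG (adjusted p = 0.0495), and the ICG call was lost in 6 of 6 fits without an array. Cxcl5, a neutrophil attractant of epithelial cells, had 9.70, 9.40 and 10.57 with PHA, 11.55, 11.08 and 11.57 with ICG and 11.48, 11.29 and 10.77 with DMSO. It fell with PHA by 1.29 ± 0.28 (adjusted p = 0.0191), while the ICG arrays overlapped DMSO (0.22 ± 0.28, adjusted p = 0.619). The call was lost without PHA array 1, PHA array 2, DMSO array 1 or DMSO array 2, with adjusted p from 0.0532 to 0.0696. Ppbp, the precursor of a platelet chemokine, had 3.96, 3.79 and 4.23 with PHA, 4.46, 4.35 and 5.16 with ICG and 4.95, 5.10 and 4.61 with DMSO. It fell with PHA by 0.89 ± 0.21 (adjusted p = 0.0246), against a difference of −0.23 ± 0.21 with ICG. The PHA call was lost without any of the same 4 arrays. All these Ppbp signals lay below the lowest array median of 5.74 and were not shown to be above background.

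Cxcl1 and Cxcl2, close relatives of Cxcl3 that also bind Cxcr2, were not called. Cxcl1 had 13.43, 13.41 and 13.61 with PHA, 13.46, 13.32 and 13.45 with ICG and 13.32, 13.20 and 13.06 with DMSO. Its differences were 0.29 ± 0.09 (adjusted p = 0.062) and 0.22 ± 0.09 (adjusted p = 0.0903), above the DMSO mean with both agents. Cxcl2 had differences of 0.15 ± 0.14 and 0.21 ± 0.14, with overlapping groups.

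The starts of Ccl12 and of Cxcl1, Cxcl2 and Cxcl3 are shown because Ccl12 changed most and the 3 Cxcl neighbours on chromosome 5 did not change alike. Each sequence is the 150 bases before the start in RefSeq (build GRCm38.p6, plus strand), with matches to the NF-kB motif GGANNTTCC in capitals. The windows are chr11:82101695-82101844 for Ccl12, chr5:90891095-90891244 for Cxcl1, chr5:90903749-90903898 for Cxcl2 and chr5:90785951-90786100 for Cxcl3.
Ccl12: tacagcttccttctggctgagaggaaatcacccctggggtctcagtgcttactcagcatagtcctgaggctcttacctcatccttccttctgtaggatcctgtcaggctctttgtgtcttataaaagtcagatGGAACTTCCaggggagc
Cxcl1: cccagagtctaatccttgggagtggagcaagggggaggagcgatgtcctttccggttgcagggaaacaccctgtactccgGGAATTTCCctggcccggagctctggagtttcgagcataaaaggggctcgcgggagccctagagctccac
Cxcl2: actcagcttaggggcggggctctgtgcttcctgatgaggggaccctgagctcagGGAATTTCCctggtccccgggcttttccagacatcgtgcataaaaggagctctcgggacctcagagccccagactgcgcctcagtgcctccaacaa
Cxcl3: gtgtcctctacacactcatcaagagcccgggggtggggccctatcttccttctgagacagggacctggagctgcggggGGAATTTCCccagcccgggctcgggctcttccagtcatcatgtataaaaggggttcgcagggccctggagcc
The match stood at bases −17 to −9 in Ccl12, −70 to −62 in Cxcl1, −96 to −88 in Cxcl2 and −72 to −64 in Cxcl3. The 3 Cxcl matches have the same 9 letters, although Cxcl3 fell with PHA and the others did not pass. The 4 motifs were looked for on both strands in the 250 bases before and 50 after each start. The promoter table held 44 windows of 40 members and 13 further members were not matched, among them Ccl2, Ccl4, Ccl7, Ccl11, Cxcl5, Cxcl16 and Cxcl17. NF-kB matches were in 7 of the 44 windows (15.9%), each of a different gene, against 4.3% of 32851 promoters. The AP-1 motif TGANTCA was in 9 (20.5%, against 7.8%), the STAT motif TTCNNNGAA in 4 (9.1%, against 8.3%) and the CRE core TGACG in 8 (18.2%, against 20.8%). Within the printed windows only NF-kB matched, so no motifs overlapped there. A match says only that the letters are present.

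The other CC ligands included 3 genes called with a single agent, Ccl25, Ccl28 and Ccl27a. Ccl25, a thymus and gut ligand of Ccr9, had 7.86, 7.83 and 7.88 with PHA, 6.84, 7.09 and 7.13 with ICG and 7.66, 7.80 and 7.70 with DMSO. It fell with ICG by 0.70 ± 0.08 (adjusted p = 0.000208), and a second probe set changed by −0.72. Ccl28, a mucosal ligand of Ccr10 that the lactating mammary gland makes, had 5.65, 5.43 and 5.75 with PHA, 6.02, 5.79 and 6.05 with ICG and 5.32, 5.18 and 5.51 with DMSO. It rose with ICG by 0.62 ± 0.11 (adjusted p = 0.00267) and its difference with PHA was 0.27 ± 0.11 (adjusted p = 0.159). A pair of further probe sets for Ccl28 had differences of 0.28 and 0.11 with ICG and did not pass. The DMSO signals of Ccl28 lay below the lowest array median of 5.74 and were not shown to be above background.

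Ccl27a, a skin ligand of Ccr10, had 5.95, 6.13 and 5.77 with PHA, 5.40, 5.24 and 5.62 with ICG and 5.45, 5.70 and 5.32 with DMSO. Its rise with PHA, 0.46 ± 0.13, stood at the threshold (adjusted p = 0.0498) and was lost without either of DMSO arrays 1 and 3 or PHA arrays 1 and 2. The ICG and DMSO signals of Ccl27a lay below the lowest array median of 5.74 and were not shown to be above background. Cxcl16, a membrane bound ligand of Cxcr6, had 10.11, 10.21 and 10.20 with PHA, 10.58, 10.55 and 10.69 with ICG and 10.44, 10.60 and 10.57 with DMSO. It fell with PHA by 0.36 ± 0.07 (adjusted p = 0.0096), a second probe set changed by −0.49, and ICG arrays overlapped DMSO. Cxcl17, a mucosal attractant, had 6.02, 6.19 and 5.98 with PHA, 6.30, 6.19 and 6.31 with ICG and 6.11, 5.70 and 6.02 with DMSO. It rose with ICG by 0.32 ± 0.10 (adjusted p = 0.0455), a call that was kept in only 1 of 6 fits without an array. Cxcl14, Cxcl13, Cxcl10, Cxcl9, Cxcl11, Cx3cl1, Xcl1 and Pf4 did not pass with either agent.

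Of the 16 signalling receptors 1 fell with PHA (6.25%, near the 7.07% of all genes). With ICG 0 fell, against 15% of all genes, and 1 of the 16 had an unadjusted p under 0.05 in limma's test. Of all 19 receptors 18 had a mean signal below the median gene's 6.94, all but Ccr1. A change in receptors of such low signal may go unseen. Ccr1, the receptor of Ccl3, Ccl6 and Ccl9 on myeloid cells, had 10.42, 10.28 and 10.20 with PHA, 10.97, 11.02 and 11.11 with ICG and 10.97, 11.05 and 11.09 with DMSO. PHA arrays lay below all others, at −0.73 ± 0.07 (adjusted p = 0.000333), and a second probe set had a difference of −0.63 ± 0.19 (adjusted p = 0.088). With ICG the difference was under 0.01, with a 95% interval from −0.17 to 0.16. The other 15 had differences of −0.3 to 0.31 with PHA and −0.25 to 0.25 with ICG. Among the 3 atypical receptors, Ackr1, which binds many inflammatory chemokines, had 6.31, 6.33 and 6.44 with PHA, 6.55, 6.44 and 6.57 with ICG and 6.92, 6.71 and 6.68 with DMSO. It fell with PHA by 0.41 ± 0.08 (adjusted p = 0.0104) and changed by −0.25 ± 0.08 with ICG (adjusted p = 0.0429), the ICG call being lost in 5 of 6 fits without an array.

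**Figure D2:**
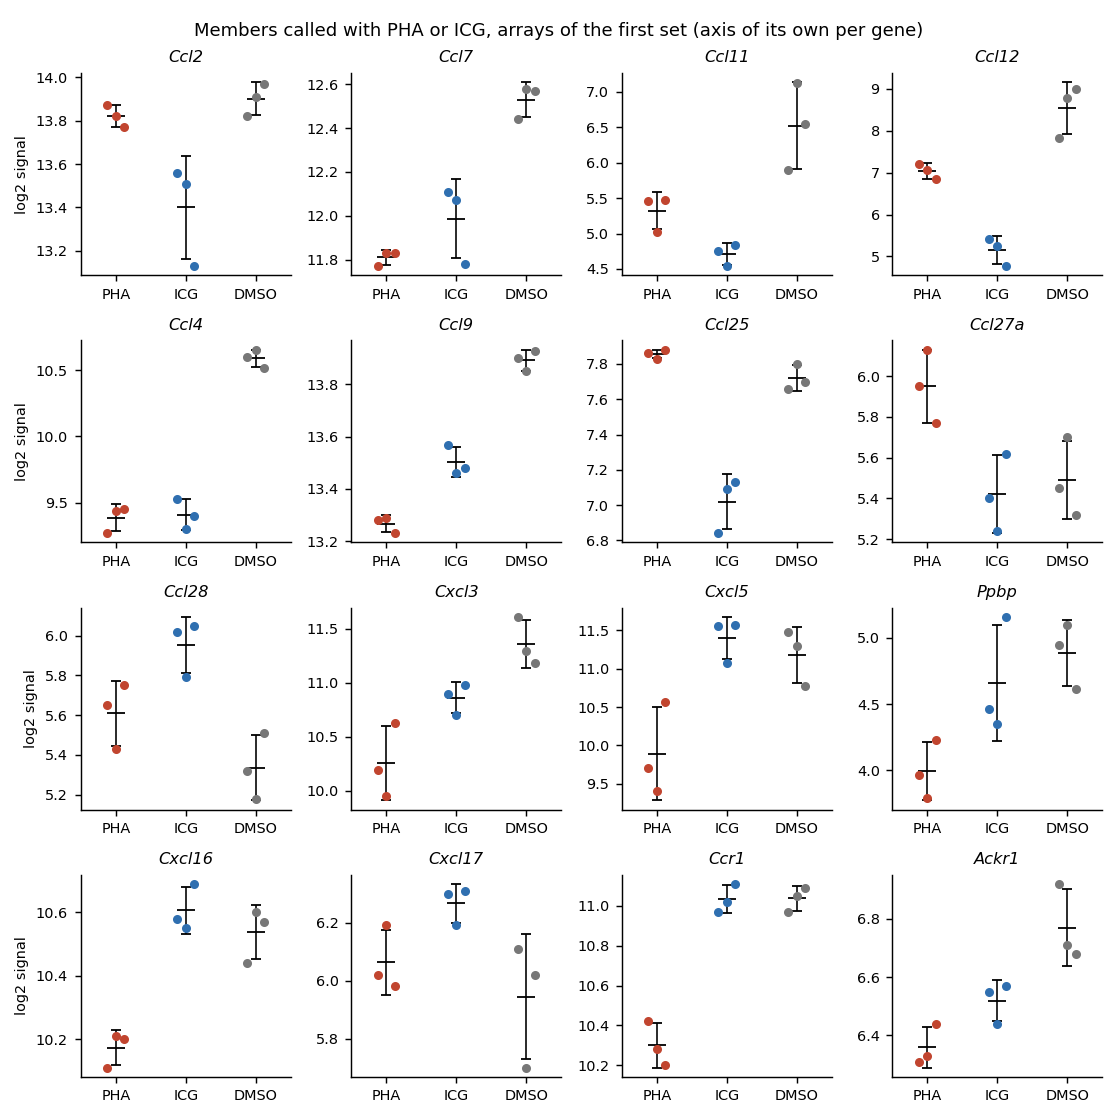
Log2 signal of the 16 members called with PHA or ICG on the 3 PHA, 3 ICG and 3 DMSO arrays of the first set; points are arrays and bars the mean ± SD. Ccl4 was near 9.4 with both agents and above 10.5 on DMSO arrays, and Ccr1 and Cxcl16 were lower on PHA arrays alone.

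Of the 12 members called with PHA and the 11 called with ICG, 7 were shared, Ackr1, Ccl4, Ccl7, Ccl9, Ccl11, Ccl12 and Cxcl3, all lower with both. The comparisons share their DMSO arrays, so the number shared is given as a description. The overlap over all genes is not given, so these counts cannot be called many or few. PHA against ICG, fitted directly, called 11 members. PHA was higher for Ccl12 (1.89 ± 0.27, adjusted p = 0.000602), Ccl25 (0.84 ± 0.08), Ccl27a (0.53 ± 0.13) and Ccl2 (0.41 ± 0.11), which is 7.55% of members, below the 13.7% of all genes. PHA was lower for Cxcl5 (−1.51 ± 0.28, adjusted p = 0.00294), Ccr1 (−0.73 ± 0.07), Ppbp (−0.67 ± 0.21), Cxcl3 (−0.60 ± 0.17), Cxcl16 (−0.43 ± 0.07), Ccl28 (−0.34 ± 0.11) and Ccl9 (−0.23 ± 0.06), or 13.2%, near the 13.4% of all genes. The 5 members called with PHA alone, Ccl27a, Ccr1, Cxcl16, Cxcl5 and Ppbp, all differed from ICG. Of the 4 called with ICG alone, Ccl2, Ccl25 and Ccl28 differed from PHA and Cxcl17 did not pass. The difference of Ccl4 between the agents was −0.02 (adjusted p = 0.868), with a 95% interval from −0.20 to 0.15. Calls were lost for Ccl2, Ccl9, Ccl28, Cxcl3 and Ppbp in at least 1 fit without an array. Without PHA array 1 the count fell to 7.

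Genes that work with the chemokines were counted from lists of receptor signalling, inducers and chemokine cleaving or binding proteins. Over all genes 7.07% fell and 3.14% rose with PHA, and 15% fell and 11.9% rose with ICG. Equal counts for the 2 agents therefore do not weigh alike. Of 24 receptor signalling genes 8 fell and 2 rose with PHA, and 8 fell and 3 rose with ICG. Rgs1 and Pik3r5, a brake on G protein signalling and a subunit of the leukocyte PI3-kinase, fell with PHA and rose with ICG: Rgs1 averaged 11.39 with PHA, 12.47 with ICG and 12.15 with DMSO, and Pik3r5 averaged 9.31, 10.17 and 9.82 in the same groups. Rgs1 changed by −0.76 ± 0.09 with PHA and 0.32 ± 0.09 with ICG, and Pik3r5 by −0.51 ± 0.07 and 0.35 ± 0.07.

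Of 21 inducers 2 fell and 0 rose with PHA: Fos by 0.55 ± 0.07 and Tnfaip3, a feedback inhibitor of NF-kB, by 0.53 ± 0.08. By limma with ICG 5 rose, the NF-kB subunits Rela (0.47 ± 0.08) and Relb (0.39 ± 0.06), the inhibitor Nfkbia (0.29), the interferon factor Irf9 (0.29) and the cytokine Il1a (0.42 ± 0.11), and 1 fell, Fos, by 0.25 ± 0.07, which is named outside the rule of 5 genes. Of 10 cleaving or binding genes 4 fell and 1 rose with PHA, and 5 fell and 1 rose with ICG. Mmp12, a macrophage protease that cleaves chemokines, changed by −1.01 ± 0.09 and −0.86 ± 0.09. Cmklr1, the chemerin receptor, changed by −0.70 ± 0.12 and −1.02 ± 0.12, and Ccrl2, an atypical receptor that binds chemerin, rose with ICG by 0.70 ± 0.09.

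Markers of other cell types moved with these changes, and their part in the result was not tested. Their counts stand beside 7.07% of all genes lower with PHA and 15% lower with ICG. Of 11 macrophage markers 4 fell with PHA and 9 with ICG, and their mean ranged over 10.17 to 10.37 with PHA, 9.4 to 9.75 with ICG and 10.44 to 10.95 with DMSO. Of 10 fibroblast markers 5 fell with PHA and 8 with ICG, with means of 9.41 to 9.52, 8.48 to 9.17 and 9.84 to 10.51 in the same order. Of 6 basophil and mast cell markers 5 fell with PHA and 4 with ICG, with means of 6.78 to 6.97, 7.11 to 7.37 and 8.03 to 8.11. Of 5 leukocyte markers 2 fell with each agent, Laptm5 and Coro1a with PHA and Tyrobp and Coro1a with ICG. Of 3 neutrophil markers 2 fell with PHA and 0 with ICG. Of 6 epithelial markers 2 fell with PHA (Krt5 and Krt14) and 4 with ICG (Epcam, Krt8, Krt5 and Krt14), with means of 9.07 to 9.19 with PHA, 8.94 to 9.10 with ICG and 9.26 to 9.31 with DMSO. Array signals have no true zero, so no marker can be called absent.

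In the second set PHA+ICG against DMSO called 0 of the 53 members by limma, and 9 had an unadjusted p under 0.05. Over all genes 0.478% were higher and 1.54% lower. That main fit did not pair the arrays. Same-numbered arrays of this set deviated together, with correlations of 0.61, 0.36 and 0.28, and a replicate block was run as an alternative. Unlike numbers correlated about as well between PHA+ICG array 2 and DMSO array 3 (0.35) and between PHA+ICG array 3 and DMSO array 2 (0.24), so arrays 1 alone stand apart and the pairing of arrays 2 and 3 by number is not shown. With replicate number as a block, 6 members were called: Ccl11, Ccl9, Ccl6, Ccl8 and Cxcl14 were lower and Ackr1 was higher. These were 5 members against 6.01% of all genes lower and 1 member against 1.92% higher. Without both arrays numbered 1, which the leukocyte markers set apart and which were left out after seeing the data, 8 members were lower (Ccl6, Ccl7, Ccl8, Ccl9, Ccl11, Cxcl10, Cxcl14 and Pf4) and 0 higher, against 4.14% of all genes lower and 0.731% higher.

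Ccl11 had 9.74, 7.49 and 7.39 on PHA+ICG arrays 1, 2 and 3, and 11.73, 10.35 and 10.28 on the DMSO arrays. Every PHA+ICG array was below every DMSO array, and the pair differences were −1.99, −2.86 and −2.89. The difference was −2.58 ± 0.64 without the block (adjusted p = 0.0984), −2.58 ± 0.20 with it (adjusted p = 9.65e-05) and −2.87 ± 0.18 without arrays 1. Ccl9 had 9.15, 9.10 and 8.55 with PHA+ICG and 11.06, 9.75 and 9.89 with DMSO, a difference of −1.30 ± 0.35 (adjusted p = 0.12) that was called with the block (adjusted p = 0.00572). Ccl6 had 12.34, 10.87 and 11.52 with PHA+ICG and 12.91, 12.69 and 12.70 with DMSO, a difference of −1.19 ± 0.33 (adjusted p = 0.136, and 0.00912 with the block). All PHA+ICG arrays of Ccl9 and Ccl6 were below all DMSO arrays.

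Ccl8, a monocyte ligand, had 11.79, 10.61 and 10.93 with PHA+ICG and 12.88, 11.77 and 12.06 with DMSO. The groups overlapped, while the pair differences were even, at −1.09, −1.15 and −1.13, and the difference was −1.12 ± 0.37 (adjusted p = 0.202, and 0.00173 with the block). Cxcl14, a ligand of epithelial tissues, had 5.69, 4.68 and 5.30 with PHA+ICG and 6.09, 6.46 and 5.88 with DMSO (−0.92 ± 0.28, adjusted p = 0.163, and 0.0482 with the block). A second probe set for Cxcl14 had a difference of −0.22 ± 0.18 (adjusted p = 0.818), so this gene is uncertain. Its PHA+ICG signals lay below the lowest array median of 5.74 and were not shown to be above background. Ackr1 was higher, with 7.41, 7.48 and 7.18 on PHA+ICG arrays and 6.32, 6.55 and 6.71 on DMSO arrays, a difference of 0.83 ± 0.17 (adjusted p = 0.0556, and 0.016 with the block).

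The members that fell with PHA or ICG in the first set were not all lower here. Some had low signals with DMSO, and whether this bears on their changes was not tested. On DMSO arrays of this set Cxcl3 had 2.82, 3.35 and 3.38 and Ppbp 3.19, 3.64 and 3.44, not shown to be above background. Ccl12 had 4.93 and 4.99 on DMSO arrays 2 and 3, below its ICG mean of 5.15 in the first set. For these genes the values cannot show whether the fall repeats. Ccl4 had 8.84, 7.45 and 7.15 with PHA+ICG and 10.27, 7.37 and 7.35 with DMSO, so only the pair of arrays 1 differed by more than 1. Ccl12 had 4.80, 5.00 and 3.75 with PHA+ICG and 6.59, 4.93 and 4.99 with DMSO (−0.99 ± 0.49, adjusted p = 0.457). Its pair differences were −1.79, 0.07 and −1.24, so arrays 3 differed as well as arrays 1. Cxcl10, an interferon induced ligand of Cxcr3, had 5.08, 5.91 and 6.48 with PHA+ICG and 4.86, 8.23 and 7.76 with DMSO. Its pair differences were 0.21, −2.32 and −1.29. Cxcl1 and Cxcl2 had differences of 0.73 ± 0.42 and 0.74 ± 0.33, and neither passed with or without the block. Of the 3 lists of partner genes 0 members were called in either direction, with medians of −0.42 for receptor signalling, 0.04 for inducers and −0.41 for cleaving or binding genes.

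**Figure D3:**
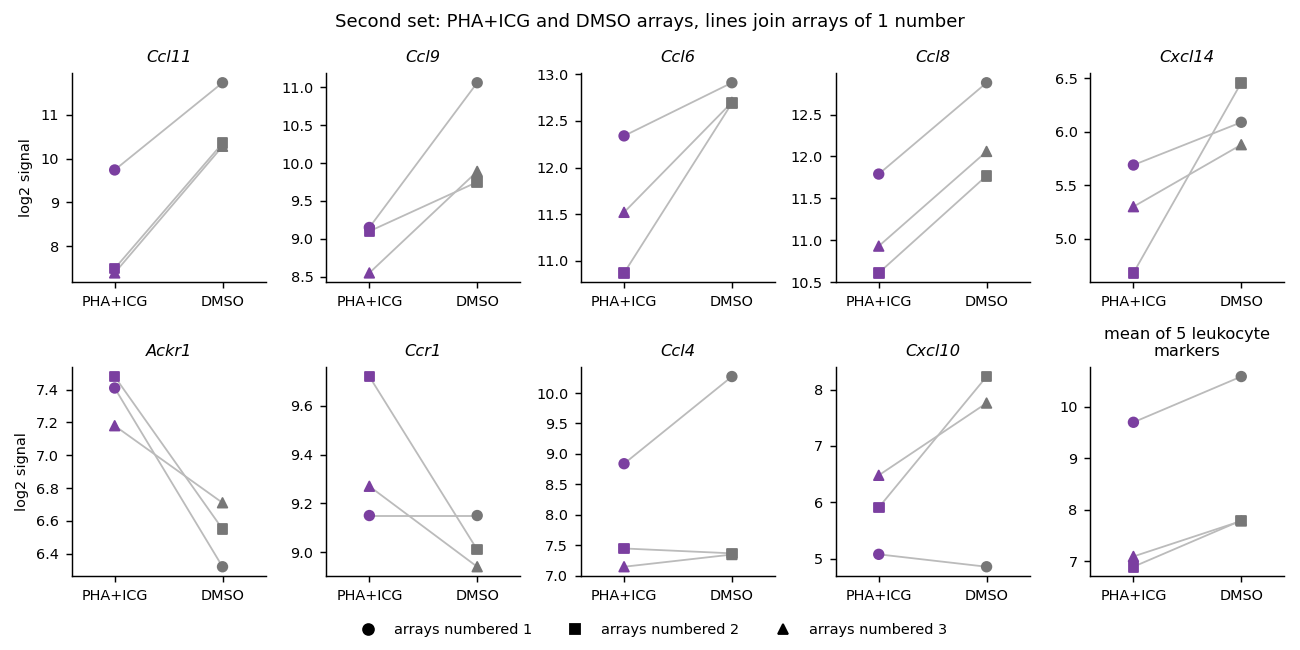
Log2 signal of 9 members and the mean of 5 leukocyte markers in the second set, PHA+ICG arrays left and DMSO arrays right, with lines joining arrays of 1 number. Ccl11, Ccl9, Ccl6 and Ccl8 were lower with PHA+ICG in all 3 pairs, Ackr1 was higher in all 3, and arrays 1 carry the highest leukocyte mean in both groups.

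Markers moved here too, and their part was not tested. The macrophage mean ran from 7.01 to 8.67 with PHA+ICG and from 7.91 to 9.88 with DMSO, and 0 of 11 members passed. Of 10 fibroblast markers Col1a1 and Fap fell, with means of 10.74 to 11.09 against 11.51 to 11.80. Of 6 basophil and mast cell markers 1 fell, the protease Mcpt8 (−1.72 ± 0.23). Of 3 neutrophil markers 1 fell, S100a8 (−1.51 ± 0.23), while S100a9 (−0.64 ± 0.48) and Csf3r (−0.08 ± 0.22) did not pass. Epithelial markers averaged 9.40, 8.03 and 8.12 on PHA+ICG arrays 1, 2 and 3, and 9.54, 9.33 and 9.37 on the DMSO arrays. PHA+ICG array 1 thus differed from arrays 2 and 3 in epithelial signal too. Of the 6 epithelial markers 0 passed.

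Whether PHA+ICG acted otherwise than each agent was tested as a difference of effects, each against DMSO of its own set, over all 15 arrays with a weight per set. Against PHA, 2 members had a higher effect and 0 a lower one, beside 1.08% and 1.66% of all genes. Ackr1 differed by 1.24 ± 0.20 (adjusted p = 0.00414), from 0.83 with PHA+ICG and −0.41 with PHA. Ccr1 differed by 1.08 ± 0.21 (adjusted p = 0.00973): its PHA+ICG arrays held 9.15, 9.72 and 9.27 and DMSO arrays of that set 9.15, 9.01 and 8.94, whereas it fell with PHA. The Ccr1 call was lost without DMSO array 2 or DMSO array 3 of the second set. With the block 5 members were called, Ccl6 (−1.08), Ccl28 (−0.91) and Cxcl14 (−1.17) being added as lower, beside 1.92% of all genes higher and 3.34% lower. Against ICG, Ackr1 was the 1 member with a higher effect (1.08 ± 0.20, adjusted p = 0.0313) and 0 were lower, beside 0.121% and 0.264% of all genes. That call was lost in 5 of 12 fits without an array and without both arrays 1. With the block Ccl28 was added as lower (−1.26), beside 0.253% of all genes higher and 0.83% lower. Ccl28 was not called in either comparison without both arrays 1 (adjusted p = 0.28 minus PHA and 0.146 minus ICG), and its other probe sets had PHA+ICG differences of 0.09 and −0.20, against −0.64 on the one used. PHA+ICG and the single agents lie in different sets, so a difference between agents and a difference between sets cannot be told apart here.

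The DMSO arrays of the sets differed widely in these genes, and this is given as levels with no test. Of the 53 members 11 were at least 2 lower on the log2 scale in DMSO of the second set than of the first (20.8%, against 1.52% of all genes), and 1 was at least 2 higher (1.89%, against 1.19%). Cxcl3 had 2.82, 3.35 and 3.38 in the second set and 11.61, 11.29 and 11.18 in the first. No size is given for this difference, since a signal near 3 was not shown to be above background. Pf4, a platelet chemokine that mouse macrophages also express, had 7.12, 7.51 and 7.46, against 13.01, 13.29 and 13.26. The other genes that were lower by at least 2 were Ccl3, Ccl4, Ccl5, Ccl9, Ccl12, Ccr1, Cxcl2, Cxcl5 and Cxcl16. Ccl11 ran the other way, with 11.73, 10.35 and 10.28 in the second set and 5.90, 7.12 and 6.55 in the first. Leukocyte markers averaged 7.78 to 10.59 on DMSO arrays of the second set and 11.62 to 11.68 in the first, macrophage markers 7.91 to 9.88 and 10.44 to 10.95, and fibroblast markers 11.51 to 11.80 and 9.84 to 10.51. The sets and their array batches cannot be told apart.

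**Figure D4:**
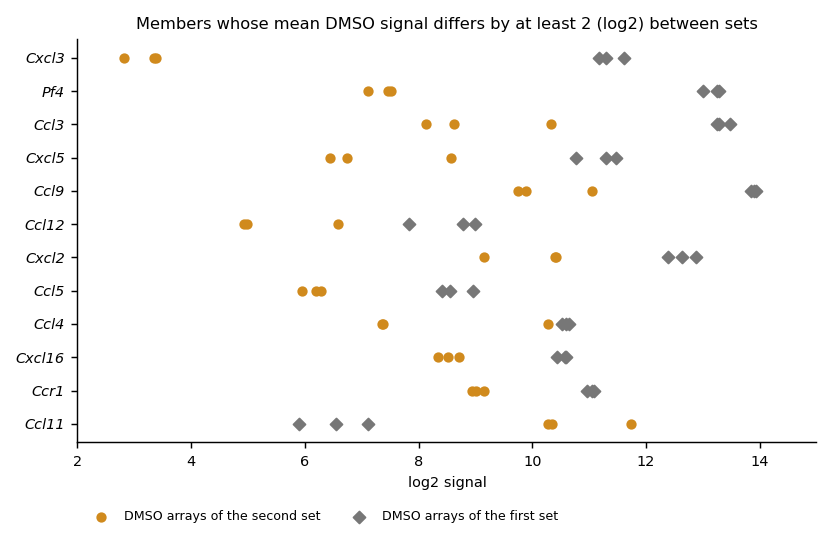
Log2 signal on DMSO arrays of the 12 members whose means differed by at least 2 between sets, orange circles for the second set and grey diamonds for the first. All but Ccl11 were lower in the second set.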

How the data were processed

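The deposited values of 45101 probe sets on 15 arrays are on the log2 scale; per the submitters' processing notes RMA and MAS5 were named, without versions or roles, and whether both sets were normalized together is not given in the sources used here. No detection calls were used. Probe sets with 1 symbol in the platform annotation (34945) gave 18193 genes, each by its probe set of highest mean; 932 with several symbols and 64 controls were left out of the gene tests. Members, partner lists and markers were chosen with earlier results of these data known.

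Each set was fitted alone with limma 3.58.1 in R 4.3.3 (group means, eBayes), since the second set spread more; this left 6 and 4 residual degrees of freedom. Differences of effects used all 15 arrays with a weight per set. P-values were Benjamini-Hochberg adjusted over all genes. The main fits had no block, and replicate number entered only an alternative fit. Correlations of deviations between same-numbered arrays were −0.26 to 0.12 in the first set and 0.28 to 0.61 in the second. The fits were tested on simulated data. The number of arrays limits the precision. Genes were named as members of the rule, with every array given for those called against DMSO or with the highest signals. Up to 5 called genes per partner list and comparison were named, apart from those marked as outside this rule. Alternatives covered the fit, block, prior, scaling, filter, probe set choice and single arrays. Promoters were read from a RefSeq table (GRCm38.p6) with Python 3.11.15.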

Additional observations from a re-analysis of the deposited data

Results flagged for a closer look

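A probe set that the annotation gives 5 symbols, Ccl27a and Ccl27b among them, entered no comparison of genes. In the fit over all probe sets its signal was higher with PHA than with DMSO, at 6.69 ± 0.06 and 6.29 ± 0.14 (SD, n = 3 arrays each), a limma change of 0.40 ± 0.09 (adjusted p = 0.0278). It is listed because this is a signal outside the gene table above the level of the DMSO arrays. The rise of Ccl27a itself with PHA was 0.46 ± 0.13 on its own probe set. A further probe set with the same 5 symbols had a difference of 0.24 ± 0.07 with PHA (adjusted p = 0.0854) and changed by −0.28 ± 0.07 with ICG (adjusted p = 0.0222). The genes under these probes cannot be told apart.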

How the results depend on the processing

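Over 491 values of called genes under the alternatives, 0 reversed, 399 kept their call and 92 lost it; of 37 calls 23 were kept in every fit without 1 array and 9 in every alternative run. With 1 spread pooled over all 15 arrays the members called were 2 with PHA, 3 with ICG, 4 for PHA against ICG and 8 with PHA+ICG, and without weights 4 for PHA+ICG minus PHA. The filter on low values gave 7 for PHA against ICG, 1 for PHA+ICG minus PHA and 0 for PHA+ICG minus ICG. For PHA+ICG against DMSO, quantile normalization and the mean of all probe sets each gave 1 called member, and the mean of all probe sets gave 1 for PHA+ICG minus PHA. The replicate block gave 6 called members with PHA+ICG, 5 for PHA+ICG minus PHA and 2 for PHA+ICG minus ICG. Leaving out both arrays 1, chosen after seeing the data, gave 8, 5 and 2. Without 1 array the counts ran over 8 to 12 (PHA), 8 to 11 (ICG), 7 to 11 (PHA against ICG), 0 to 2 (PHA+ICG), 1 to 4 (minus PHA) and 0 to 2 (minus ICG). In the first set, whose numbers do not pair, the block lost Ccl27a with PHA, Ackr1 and Cxcl17 with ICG and Ppbp between them. By limma with the block Ccl28 was called with PHA (0.27 ± 0.06, adjusted p = 0.0448), which the main fit did not call. The cause of these changes was not tested. Over all genes the split moved with scaling: 572 higher and 1286 lower with PHA became 897 and 1093 by quantile normalization and 1188 and 938 centred on the median; 2162 and 2734 with ICG became 3447 and 2134 centred; 87 and 281 with PHA+ICG became 130 and 234, and 109 and 214. The median of all genes moved by less than 0.1 under these scalings.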
